A study of Mus musculus with 12 samples.

Results

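The diacylglycerol kinase genes Dgka, Dgkd, Dgke and Dgkz, the noncoding gene Dgkeos that starts beside Dgke on the opposite strand, and the RasGRP exchange factor genes Rasgrp1 and Rasgrp2 were followed across T cell lymphomas of TCF-1 KO mice, DN3 thymocytes of TCF-1 KO mice and DN3 thymocytes of wild-type mice. These 7, of 19938 genes that had at least 1 row with no other symbol, were chosen by symbol, in the platform annotation, as members of a diacylglycerol to Ras axis, and the row with the highest mean stood for each gene. They were chosen with results of these same arrays known. Their values are therefore a description, and no limma p-value is printed for them. The calls given for them below rest on limma adjusted p and are a description too, since the choice drew on the same results.

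Diacylglycerol is a membrane lipid that phospholipase C releases when the T cell receptor or its precursor signals. It recruits RasGRP proteins, which load Ras or Rap with GTP, and protein kinases C and D. Diacylglycerol kinases end the signal by phosphorylating the lipid to phosphatidic acid. In thymocytes Rasgrp1 links the receptor to the Ras and ERK cascade, Dgka and Dgkz are the kinases best known for restraining it, and a transgene that raises Rasgrp1 is known to give mice thymic lymphomas.

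The study set 6 lymphomas of TCF-1 KO mice and 3 samples of TCF-1 KO DN3 thymocytes against 3 samples of wild-type (WT) DN3 thymocytes, all labelled as biological replicates. TCF-1 is a transcription factor that thymocytes need from their first stages on, and DN3 thymocytes lack CD4 and CD8 and are passing beta selection. All mice were of the C57/BL6 strain. KO mice with lymphoma were aged 12 to 40 weeks, whereas KO and WT donors of DN3 cells were aged 8 to 12 weeks, so lymphoma and age cannot be told apart. All cells were sorted out of the thymus straight into Trizol LS, and 800 pg to 50 ng of RNA was amplified with a NuGEN Pico kit before hybridisation to Affymetrix Mouse Gene 1.0 ST arrays. The labels do not state the knockout allele or whether each lymphoma is 1 clone. Genotypes are given as labelled and were not checked, since the level of the deleted gene is not analysed here.

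Values are log2 RMA signals, on which a difference of 1 is a doubling, and a gene was called where limma gave an adjusted p under 0.05 over the 14953 genes that passed a brightness filter. Array medians lay between 5.30 and 5.39. They fell into 2 sets that the labels do not name: 34 rows without a gene name had medians of 6.02 to 6.35 on WT replicate 1, KO DN3 replicate 1 and lymphomas 1 and 2 (the smaller set) but 8.34 to 9.04 on the remaining 8 (the larger set). Differences within each set are given below beside the pooled ones. Xist, expressed from the inactive X chromosome, was at 4.13 to 4.40 on 4 arrays (lymphomas 1, 2 and 6 and KO DN3 replicate 3) and at 10.10 to 10.58 on the rest. Kdm5d, a gene of the Y chromosome, was at 6.09 to 7.43 on those 4 arrays and at 4.38 to 4.77 on the rest. All 6 measured T lineage markers were bright in every group. Of these, Cd5 was called higher in KO DN3 cells and in lymphomas than in WT DN3 cells (log2 differences 0.63 and 0.98). Cd3g was called lower in lymphomas than in WT DN3 cells (-0.35), and Cd3e higher in lymphomas than in KO DN3 cells (0.59). Thy1, Cd3d and Bcl11b were called in no comparison. Markers of the later CD4 and CD8 double-positive (DP) stage moved with the groups: of 3 measured, Cd8a and Cd8b1 were called higher in KO DN3 than in WT DN3 cells (log2 differences 1.21 and 1.40), Cd8b1 was called higher in lymphomas than in WT DN3 cells (1.43), and Cd4 was not called. The median of this list stood at 5.82 to 7.64 in the lymphomas, 6.98 to 7.05 in KO DN3 cells and 5.67 to 5.95 in WT DN3 cells. Of 6 DN3 markers none was called between KO DN3 and WT DN3 cells. Rag1 averaged 8.47 in the lymphomas, 10.09 in KO DN3 cells and 10.39 in WT DN3 cells, and was called lower in the lymphomas in both comparisons. Rag2 was called lower in lymphomas only against WT DN3 cells (-1.39), and Ptcra only against KO DN3 cells (-0.64). Il2ra, Notch1 and Hes1 were called in no comparison. Hes1 alone leaned higher in lymphomas, by 0.12 against WT and 0.72 against KO DN3 cells. Of 8 measured B cell markers Cd79a, Ms4a1 and Ebf1 were too dim to be tested, Cd79b and Vpreb1 were called lower in lymphomas than in WT DN3 cells (-0.95 and -1.46) and than in KO DN3 cells (-0.82 and -0.50), and the list's median stood at 4.88 to 5.09 in the lymphomas, 5.15 to 5.62 in KO DN3 cells and 5.06 to 5.30 in WT DN3 cells. Of 7 NK markers Ncr1, Klrb1c, Klrd1 and Eomes were too dim. Gzma was called higher in KO DN3 cells (0.68) and in lymphomas (0.66) than in WT DN3 cells, and Nkg7 was called lower in lymphomas than in WT DN3 cells (-1.50) and than in KO DN3 cells (-1.18). Of 8 thymic stroma markers Epcam, a marker of thymic epithelium, was called lower in lymphomas than in WT DN3 cells (-1.05) and than in KO DN3 cells (-1.06). Foxn1 was called lower in lymphomas only against KO DN3 cells (-0.36). The rest of this list, with Krt5, Krt8, Psmb11, Pdgfra, Col1a1 and Col3a1, was called in no comparison. Of 4 measured platelet markers Pf4 and Ppbp were too dim, and the other 2 were called in no comparison. The part of cell composition in the results below was not tested, and in such bulk samples fewer cells of a type and less RNA per cell cannot be told apart.

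Across the groups the 7 genes did not move together. Dgke stood in 3 steps, lowest in the lymphomas, intermediate in KO DN3 cells and highest in WT DN3 cells, while its head-to-head partner Dgkeos was low in the lymphomas and overlapped between KO and WT DN3 cells. Dgka was higher in lymphomas and KO DN3 cells alike than in WT DN3 cells. Rasgrp1 was highest in the lymphomas, and Rasgrp2 was highest in KO DN3 cells. Dgkz and Dgkd differed least.

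All 7 genes passed the brightness filter. Between KO DN3 and WT DN3 cells 2 of the 7 were called, Dgka higher and Dgke lower, where 1.99% of all genes tested were called (0.568% higher and 1.42% lower). Between lymphomas and WT DN3 cells 4 of the 7 were called, Dgka and Rasgrp1 higher and Dgke and Dgkeos lower, where 5.82% of all genes were (2.96% higher and 2.86% lower). Between lymphomas and KO DN3 cells 4 of the 7 were called, Rasgrp1 higher and Dgke, Dgkeos and Rasgrp2 lower, where 6.62% of all genes were (4.5% higher and 2.12% lower). Nothing is read from these counts, since the choice of genes drew on the same comparisons. The arrays of the groups did not overlap for 5 of the 7 between KO DN3 and WT DN3 cells, against 22% of all genes. The same held for 4 of the 7 between lymphomas and WT DN3 cells, against 10.3% of all genes, and for 4 between lymphomas and KO DN3 cells, against 13.6%. The 3 comparisons share arrays with one another, so their values are not independent.

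**Figure D1:**
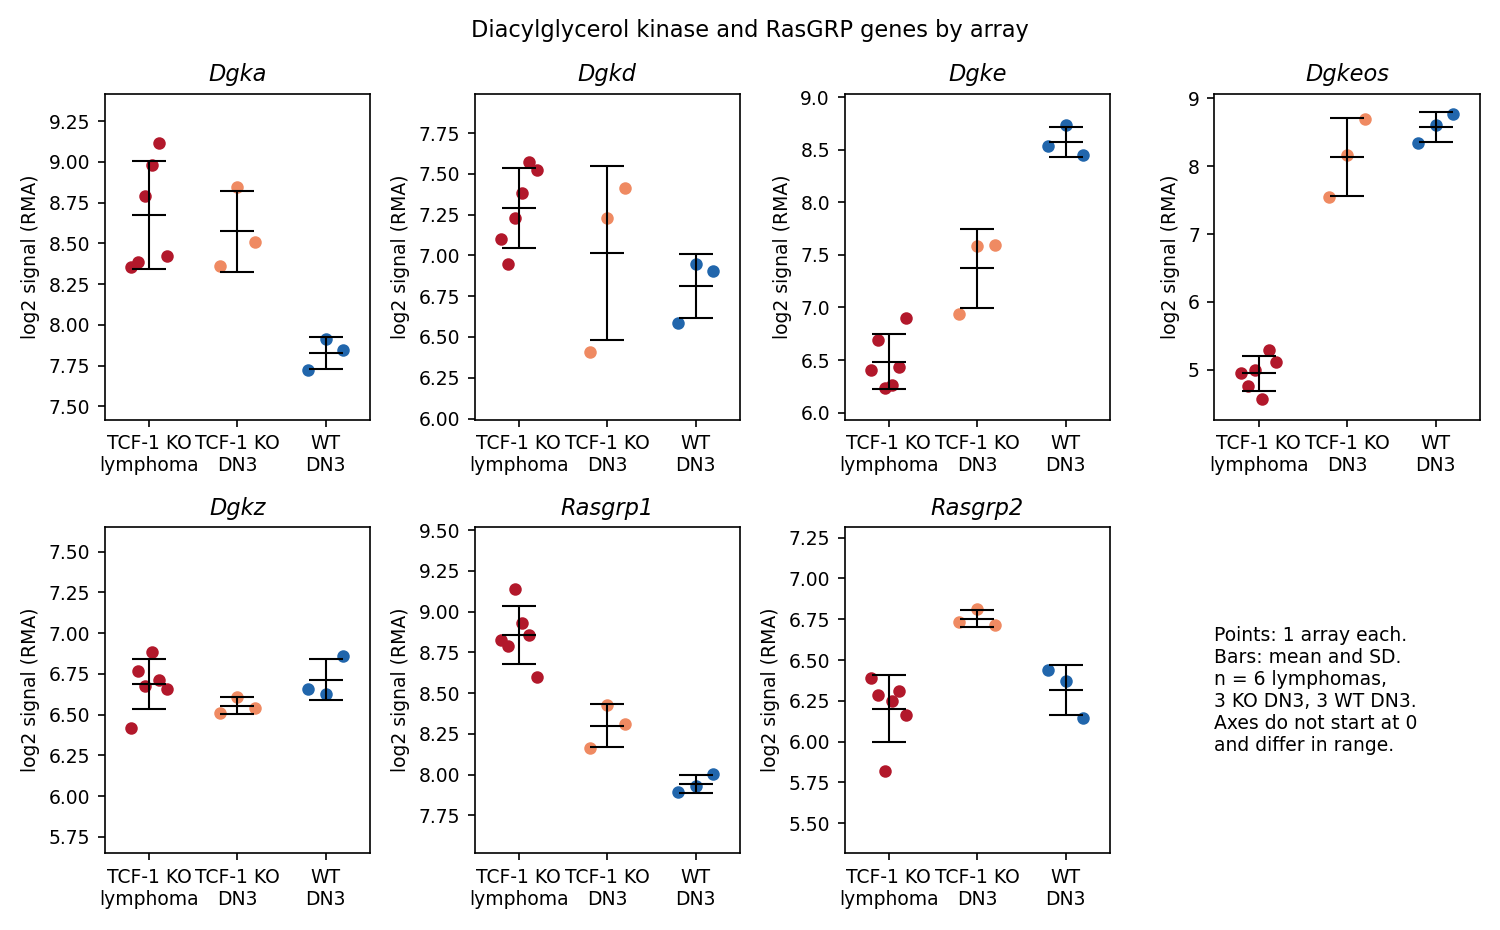
Log2 RMA signal of each of the 7 genes by array, with TCF-1 KO lymphomas (n = 6), TCF-1 KO DN3 (n = 3) and WT DN3 (n = 3) side by side. Each point is 1 array, and the bars show the mean and SD. The 6 lymphomas lie below every DN3 array for Dgke and Dgkeos and above every DN3 array for Rasgrp1.

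Dgke and Dgkeos showed the widest differences. Dgke encodes the smallest diacylglycerol kinase, which prefers diacylglycerol carrying arachidonic acid and feeds the phosphatidylinositol cycle. Dgkeos is annotated as a long noncoding RNA, and no role of it is given here. Both lie on chromosome 11, on opposite strands, with annotated starts 3 bases apart, so that the 2 transcripts run away from each other. The RefSeq promoter windows of the pair on GRCm38.p6 run 250 bases before to 50 after each start. They are chr11:89060699-89060998 on the minus strand for Dgke and chr11:89060501-89060800 on the plus strand for Dgkeos, with a G and C content of 68.3% and 73.3%. They are printed, 5′ to 3′, because both genes start here and both were low in the lymphomas. The capitals mark the 102 bases that both windows hold, read on opposite strands.
Dgke: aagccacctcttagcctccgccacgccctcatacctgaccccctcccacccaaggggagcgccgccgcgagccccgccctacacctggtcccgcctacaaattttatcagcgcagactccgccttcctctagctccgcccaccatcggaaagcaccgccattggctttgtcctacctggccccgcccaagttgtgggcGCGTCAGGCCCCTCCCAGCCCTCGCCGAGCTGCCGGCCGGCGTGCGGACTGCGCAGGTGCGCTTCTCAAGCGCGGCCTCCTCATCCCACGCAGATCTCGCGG
Dgkeos: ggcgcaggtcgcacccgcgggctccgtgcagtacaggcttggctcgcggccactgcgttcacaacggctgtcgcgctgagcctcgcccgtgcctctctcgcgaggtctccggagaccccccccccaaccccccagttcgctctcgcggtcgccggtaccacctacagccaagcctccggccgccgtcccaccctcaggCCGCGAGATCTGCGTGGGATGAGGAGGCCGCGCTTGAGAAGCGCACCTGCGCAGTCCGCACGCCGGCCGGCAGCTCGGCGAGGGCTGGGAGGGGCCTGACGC

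Dgke was at 6.23 in the lowest, 6.42 in the median and 6.90 in the highest lymphoma. It was at 6.94, 7.58 and 7.59 in the 3 KO DN3 samples and at 8.54, 8.73 and 8.45 in the 3 WT DN3 samples. No array of any group reached into the next, although the highest lymphoma lay close under the lowest KO DN3 array. The mean was 6.49 ± 0.26 (SD, n = 6) in lymphomas, 7.37 ± 0.37 (SD, n = 3) in KO DN3 cells and 8.57 ± 0.15 (SD, n = 3) in WT DN3 cells. KO DN3 cells thus lay 2.30-fold below WT DN3 cells (log2 difference -1.20, SE 0.18), and lymphomas lay 4.25-fold below WT DN3 cells (-2.09, SE 0.14) and 1.85-fold below KO DN3 cells (-0.89, SE 0.18). In the smaller and the larger array set these differences were -1.60 and -1.003, -1.99 and -2.14, and -0.39 and -1.13, all in the same direction. The call against WT DN3 cells was lost for KO DN3 cells without WT replicate 2, and the call between lymphomas and KO DN3 cells was lost without KO DN3 replicate 3.

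Dgkeos was at 4.56 in the lowest, 4.98 in the median and 5.30 in the highest lymphoma. The KO DN3 samples were at 7.55, 8.16 and 8.70, and the WT DN3 samples at 8.34, 8.61 and 8.77. The KO and WT DN3 arrays overlapped through KO DN3 replicate 3 (8.70), the only DN3 array with low Xist, while all lymphomas stood apart from both. The KO DN3 arrays with high Xist lay below every WT array, with a mean difference of -0.72. The means were 4.95 ± 0.26 (SD, n = 6) in lymphomas, 8.14 ± 0.57 (SD, n = 3) in KO DN3 cells and 8.57 ± 0.22 (SD, n = 3) in WT DN3 cells. The signal was 12.3-fold lower in lymphomas than in WT DN3 cells (log2 difference -3.62, SE 0.15) and 9.12-fold lower than in KO DN3 cells (-3.19, SE 0.22). Between KO and WT DN3 cells the difference was -0.43 (SE 0.24), with -0.78 in the smaller and -0.26 in the larger array set, and was not called in any setting tried. The lymphoma mean lay just above the brightness filter at 4.78, near the low end of the scale, where array signals understate a fold.

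To see what the levels were further along the chromosome, the 3 nearest tested genes on each side were read in the order of the RefSeq gene table. On the Dgke side Trim25, Coil and 2210409E12Rik were not called in any of the 3 comparisons. Trim25, the nearest, averaged 7.08 ± 0.08 (SD, n = 6) in lymphomas, 7.14 ± 0.08 (SD, n = 3) in KO DN3 cells and 7.20 ± 0.07 (SD, n = 3) in WT DN3 cells. On the Dgkeos side the order was Gm525, Pctp and Mmd. Pctp, which encodes a phosphatidylcholine transfer protein, was at 5.09 to 5.27 in lymphomas and at 5.63 to 5.65 in WT DN3 cells, a difference of -0.43 (SE 0.07, limma adjusted p = 0.0037, lower in 6 of 6 lymphomas). In KO DN3 cells it was at 5.24 to 5.46, overlapping the lymphomas, and was called against neither. Mmd was not called. Gm525, a predicted gene next to Dgkeos, was at 5.90 to 6.64 in 5 lymphomas but at 10.34 in lymphoma 3, against 8.34, 7.42 and 7.90 in KO DN3 cells and 8.36, 7.36 and 8.07 in WT DN3 cells. It was not called with all arrays and was called lower in both lymphoma comparisons without lymphoma replicate 3. These 6 genes were added after the levels of the pair were seen.

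**Figure D2:**
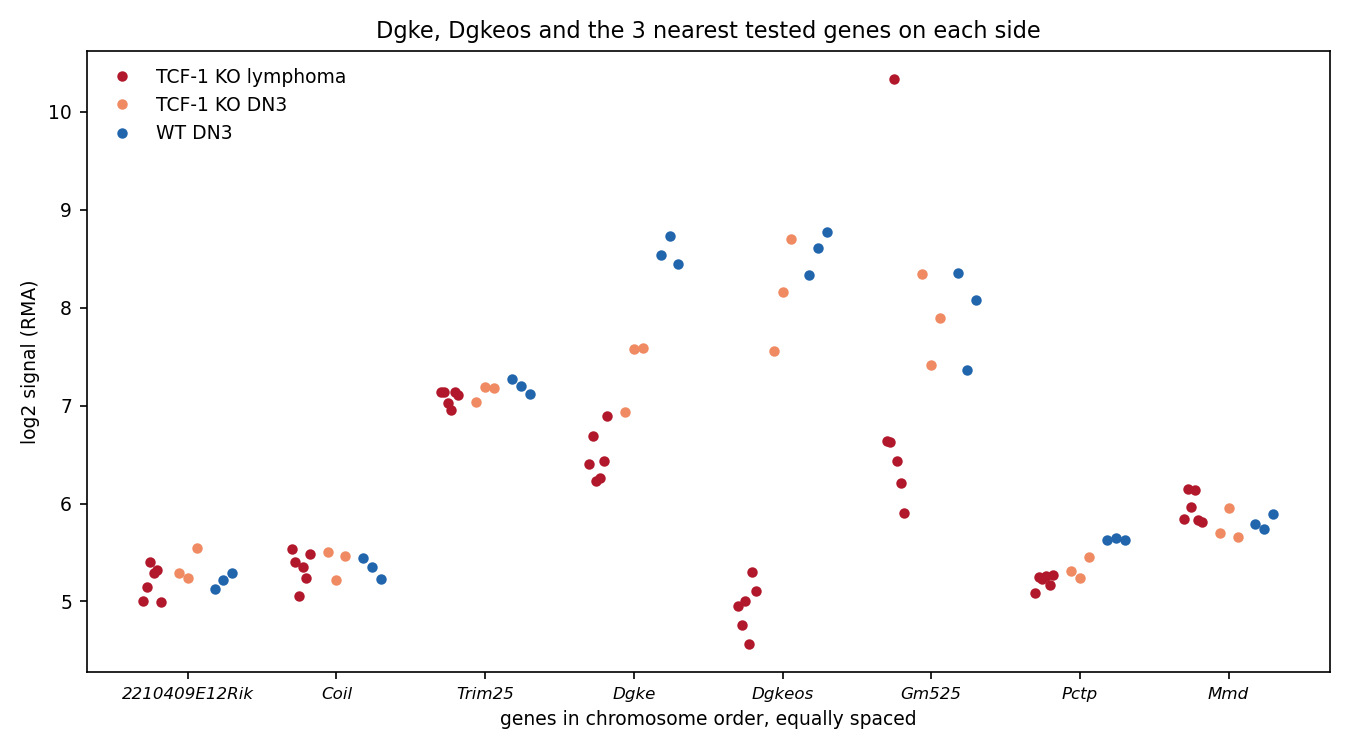
Log2 RMA signal by array of Dgke, Dgkeos and the 3 nearest tested genes on each side, in chromosome order and equally spaced, for TCF-1 KO lymphomas, TCF-1 KO DN3 and WT DN3. Dgkeos in lymphomas lies at 4.56 to 5.30, the group means of Trim25 lie at 7.08, 7.14 and 7.20, and Gm525 stands at 10.34 in lymphoma 3 alone.

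Dgka encodes the calcium-regulated diacylglycerol kinase that is known for dampening Ras signalling in anergic T cells. It was at 8.35 in the lowest, 8.61 in the median and 9.11 in the highest lymphoma. The KO DN3 samples were at 8.36, 8.84 and 8.51 and the WT DN3 samples at 7.72, 7.91 and 7.84. Every array without TCF-1, tumour or not, stood above every WT array, and lymphomas and KO DN3 cells overlapped. The mean was 8.67 ± 0.33 (SD, n = 6) in lymphomas and 8.57 ± 0.25 (SD, n = 3) in KO DN3 cells, against 7.83 ± 0.10 (SD, n = 3) in WT DN3 cells. These were differences of 0.85 (SE 0.17) for lymphomas and 0.75 (SE 0.14) for KO DN3 cells, or 1.80-fold and 1.68-fold over the same WT arrays. Within the smaller and the larger array set they were 0.65 and 0.95 for lymphomas and 0.64 and 0.80 for KO DN3 cells. Between lymphomas and KO DN3 cells the difference was 0.10 (SE 0.18). The call for KO DN3 cells was lost without WT replicate 1, 2 or 3, without KO DN3 replicate 3 and in 1 fit to all 12 arrays, and the call for lymphomas was lost without WT replicate 1.

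Dgka was also the most variable of the 7 genes among the tumours, with a lymphoma SD larger than that of 93.3% of all genes tested, against 50.3% for Dgkz. Lymphomas 1, 2 and 6, with low Xist, were at 8.35 to 8.42 for Dgka, while lymphomas 3, 4 and 5, with high Xist, were at 8.79 to 9.11. Against the WT arrays, all with high Xist, the means of these tumours differed by 0.56 and 1.13. Rasgrp1 split in the same way, at 8.60 to 8.83 in the lymphomas with low Xist and 8.86 to 9.14 in those with high Xist. The other 5 genes overlapped between these tumours. These were 2 of the 7 genes, and 20.8% of all genes tested were split without overlap between the same tumours. Lymphomas 1 and 2, with low Xist, were also the lymphomas of the smaller array set, while lymphoma 6 was in the larger set. For lymphomas 1 and 2 Xist level and array set cannot be told apart. The part of sex was not tested in the lymphoma comparisons. It was not tested between KO and WT DN3 cells either, where KO DN3 replicate 3 alone had low Xist.

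Dgkz encodes the other diacylglycerol kinase best known for limiting Ras and ERK signalling downstream of the T cell receptor. It was at 6.42 in the lowest, 6.69 in the median and 6.88 in the highest lymphoma, at 6.51, 6.61 and 6.54 in KO DN3 cells and at 6.66, 6.62 and 6.86 in WT DN3 cells. KO DN3 arrays lay just below WT DN3 arrays without overlap, by 0.16 on average (SE 0.12), and lymphomas covered the range of both. No difference of Dgkz was called in any setting tried. A second, dimmer row of the gene, at 5.56 to 6.42 over all arrays, did not show the same order, and with the mean of both rows the difference between KO and WT DN3 cells was -0.002.

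Dgkd encodes a kinase of the type that carries a pleckstrin homology domain. It was at 6.95 in the lowest, 7.31 in the median and 7.58 in the highest lymphoma. The KO DN3 samples were at 6.41, 7.23 and 7.41 and the WT DN3 samples at 6.58, 6.95 and 6.90. The arrays of the smaller set were the lowest of their group in all 3 groups. Lymphomas differed from WT DN3 cells by 0.48 (SE 0.14), with 0.44 and 0.50 within the smaller and the larger set, and this was called with the array set as a term and without lymphoma replicate 2, but not otherwise. KO DN3 cells differed from WT DN3 cells by -0.17 in the smaller and 0.39 in the larger set, so the direction of that difference depended on the set.

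Rasgrp1 encodes the diacylglycerol-binding exchange factor that activates Ras in thymocytes. It was at 8.60 in the lowest, 8.84 in the median and 9.14 in the highest lymphoma, at 8.16, 8.42 and 8.31 in KO DN3 cells and at 7.90, 7.93 and 8.00 in WT DN3 cells. The groups did not overlap, with lymphomas highest, KO DN3 cells next and WT DN3 cells lowest. The mean was 8.86 ± 0.18 (SD, n = 6) in lymphomas, 8.30 ± 0.13 (SD, n = 3) in KO DN3 cells and 7.94 ± 0.05 (SD, n = 3) in WT DN3 cells. Lymphomas stood 1.89-fold above WT DN3 cells (log2 difference 0.91, SE 0.11), with 0.91 and 0.92 in the smaller and the larger array set. They stood 1.47-fold above KO DN3 cells (0.56, SE 0.12), with 0.64 and 0.51 in the sets, a call lost without KO DN3 replicate 1 or 3, in the larger set alone and after repeated quantile normalisation. KO DN3 cells lay 0.36 (SE 0.12) above WT DN3 cells, with 0.27 and 0.40 in the sets, and were called in no setting.

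Rasgrp2 encodes an exchange factor that acts on Rap1 and is best known from platelets. It was at 5.82 in the lowest, 6.27 in the median and 6.39 in the highest lymphoma, at 6.73, 6.81 and 6.71 in KO DN3 cells and at 6.44, 6.37 and 6.14 in WT DN3 cells. KO DN3 cells stood alone at the top, while lymphomas and WT DN3 cells overlapped and differed by -0.11 (SE 0.12). Lymphomas lay 1.47-fold below KO DN3 cells (log2 difference -0.55, SE 0.12), with -0.40 and -0.63 in the smaller and the larger array set, a call lost without KO DN3 replicate 1 or 3 and in the larger set alone. KO DN3 cells lay 0.44 (SE 0.12) above WT DN3 cells, with 0.29 and 0.51 in the sets. This was not called with all arrays, but the call was made when same-numbered KO and WT DN3 arrays were paired in a replicate block, or with the array set as a term. With the block 3 of the 7 genes were called between KO and WT DN3 cells, where 9.23% of all genes were. Of 4 measured platelet markers Pf4 and Ppbp were too dim to be tested, and the 2 tested ones were called in no comparison.

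**Figure D3:**
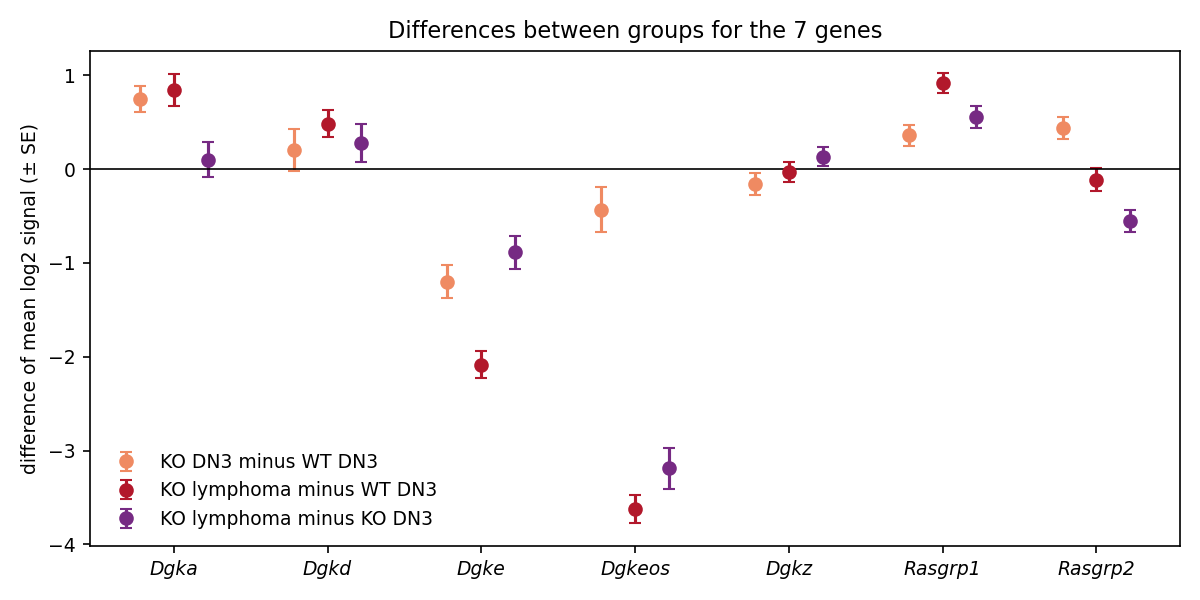
Difference of mean log2 RMA signal for each of the 7 genes in the 3 comparisons, with the standard error from limma. Dgkeos lies at -3.62 and -3.19 in the lymphoma comparisons against -0.43 between KO and WT DN3 cells, Dgka at 0.75 and 0.85 against WT DN3 cells, and Rasgrp2 at 0.44 in KO DN3 cells and -0.11 in lymphomas against WT DN3 cells.

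Among the 6 lymphomas the 7 genes were correlated in 21 pairs. The strongest relation joined Dgke and Rasgrp1, which ran in opposite directions (Pearson's r -0.894 and Spearman's rho -0.943), given as a description of these tumours. Permutation over 720 orders, adjusted for the 21 pairs, gave p = 0.233 for r and 0.35 for rho, so the relation did not pass. Without the 2 tumours farthest from the median of Dgke, r was -0.833. The array sets hold 2 and 4 lymphomas, too few for a value within each. Dgke and Dgkeos were not tightly related among the tumours, with r 0.244 and rho 0.314.

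The other genes of both families were at low signals. Dgkh, a kinase related to Dgkd, averaged 5.26 ± 0.22 (SD, n = 6) in lymphomas, 5.41 ± 0.15 (SD, n = 3) in KO DN3 cells and 5.00 ± 0.13 (SD, n = 3) in WT DN3 cells. Dgkk, Dgkq and Rasgrp4 were tested as well, and none of these 4 was called in any comparison. With the replicate block Dgkh was called between KO and WT DN3 cells. Dgki and Rasgrp3 were too dim to be tested, with group means of 4.43 to 4.63 and 4.20 to 4.26. Dgkb and Dgkg were not analysed here.

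To place the 7 genes in their pathway, 87 further genes were listed by role, of which 78 had a row, 9 of those were dim and 69 were tested. The list was drawn up with earlier results of these arrays known. Its shares of called genes, given below beside those of all genes, are therefore a description from which nothing is read. Between KO DN3 and WT DN3 cells none of the 69 was higher, 1 was lower and 68 did not pass. The median difference was 0.05, against 0.03 over all genes tested. The 1 call was Jun, an AP-1 subunit, which fell by 0.88 (SE 0.17, limma adjusted p = 0.0244, lower in 3 of 3 KO samples). Jun averaged 6.31 ± 0.07 (SD, n = 3) in KO DN3 cells and 7.20 ± 0.37 (SD, n = 3) in WT DN3 cells. Its call was lost without WT replicate 1 or 2, without KO DN3 replicate 3, in the larger array set alone and in 1 fit to all 12 arrays (limma adjusted p up to 0.259). With the replicate block 8 of the 69 were called, with Etv5, Rasa2 and Dgkh higher and Prkca, Prkcd, Plcb4, Plcg1 and Jun lower, beside the 9.23% of all genes that this fit called.

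Between lymphomas and WT DN3 cells 10 of the 69 were higher, 4 were lower and 55 did not pass, a share of 20.3% beside the 5.82% of all genes. The median difference was 0.04, against -0.01 over all genes tested. Among 20 genes that respond to ERK signalling 4 rose, none fell and 16 did not pass. Etv5, an ETS factor induced through ERK, was at 6.66 in the lowest, 8.65 in the median and 9.36 in the highest lymphoma, against 5.64, 6.02 and 6.00 in WT DN3 cells. All 6 lymphomas stood above the WT samples, with lymphoma 5 alone close to the DN3 level, and the rise was 2.51 (SE 0.44, limma adjusted p = 0.00412). Egr1, an immediate-early zinc-finger factor, rose by 0.92 (SE 0.13, limma adjusted p = 0.000802, higher in 6 of 6 lymphomas). Spred2, an inhibitor of Ras signalling, rose by 0.65 and the ERK phosphatase gene Dusp6 by 0.66, with limma adjusted p = 0.0107 and 0.0461. Jun, in the same list, differed by -0.48 and did not pass.

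Of 9 tested genes for GTPase-activating proteins, which switch Ras off, 2 rose, none fell and 7 did not pass. Rasa2 was at 7.77 in the lowest, 7.94 in the median and 8.34 in the highest lymphoma, against 6.76, 6.58 and 6.94 in WT DN3 cells, without overlap. Its rise was 1.26 (SE 0.13, limma adjusted p = 0.000115), and that of Nf1, the neurofibromin gene, was 0.44 (SE 0.10, limma adjusted p = 0.0209). Among 9 tested genes whose proteins bind diacylglycerol 3 rose, 1 fell and 5 did not pass. Prkca, a conventional protein kinase C, was at 6.17 in the lowest, 6.38 in the median and 6.82 in the highest lymphoma, against 7.77, 7.99 and 7.74 in WT DN3 cells, and fell by 1.40 (SE 0.14, limma adjusted p = 6.61e-05). Prkcq, the protein kinase C of the T cell receptor pathway, rose by 0.63, Prkd2, a protein kinase D, by 0.49 and Chn2, a chimaerin that acts on Rac, by 1.19. Their limma adjusted p were 0.00633, 0.0123 and 0.0169.

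Of 7 tested phospholipase C genes, whose products release diacylglycerol, none rose, 2 fell and 5 did not pass. Plcb4 fell by 0.78 and Plcg2, the isoform best known from B cells, by 0.39 (limma adjusted p = 0.000253 and 0.0171). Among 6 phosphatidate phosphatase genes, whose products make diacylglycerol from phosphatidic acid, Lpin2 fell by 0.91 (limma adjusted p = 0.00214) and 5 did not pass. Of 6 tested genes for Raf, MEK, ERK and their scaffolds Ksr2 rose by 0.56 (limma adjusted p = 0.0207) and 5 did not pass. None of 6 tested Ras and Rap GTPase genes, 2 other Ras exchange factor genes and 4 other family genes passed. Calls of the pathway genes that were lost without 1 WT array were those of Spred2 (replicate 1), Prkd2 (replicate 3), Ksr2 (replicates 2 and 3), Plcg2 (replicates 1 and 3), and Chn2, Nf1 and Dusp6 (each of the 3). The Dusp6 call was also lost without lymphoma 1, 2, 3 or 4, and those of Etv5, Prkcq, Chn2, Ksr2, Nf1, Dusp6 and Plcg2 in the larger array set alone. Arrays centred on their medians or no filter on dim genes lost the Dusp6 call too, which was made in 10 of 20 alternatives. The replicate block lost the calls of Prkd2, Ksr2 and Plcg2, and 1 fit to all 12 arrays that of Plcg2.

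Between lymphomas and KO DN3 cells 8 of the 69 were higher, 3 were lower and 58 did not pass, a share of 15.9% beside the 6.62% of all genes. The median difference was 0.03, against -0.03 over all genes tested. Etv5 rose by 1.92, Chn2 by 1.30, Spred2 by 0.86, Egr1 by 0.79, Rasa2 by 0.77, Nf1 by 0.76 and Prkd2 by 0.54. Plcg1, the phospholipase C of the T cell receptor pathway, rose by 0.63 (SE 0.13, limma adjusted p = 0.012). It averaged 8.03 ± 0.18 (SD, n = 6) in lymphomas, 7.40 ± 0.21 (SD, n = 3) in KO DN3 cells and 7.85 ± 0.08 (SD, n = 3) in WT DN3 cells. Prkca fell by 0.88, Lpin2 by 0.56 and Plcb4 by 0.40 (limma adjusted p = 0.00251, 0.0469 and 0.0413). The calls of Plcg1 and Etv5 were lost without KO DN3 replicate 1 or 3, that of Chn2 without KO DN3 replicate 3, that of Lpin2 without any 1 KO DN3 array and without lymphoma 2, 5 or 6, and that of Plcb4 without KO DN3 replicate 1 or 3 and without lymphoma 1, 2, 4, 5 or 6. In the larger array set alone these 5 calls were all lost (limma adjusted p = 0.0527 for Plcg1 to 0.215 for Plcb4). Those of Plcb4 and Lpin2 were also lost with arrays centred on their medians or weighted by group. Repeated quantile normalisation lost the calls of Plcg1 and Plcb4, a trended robust variance that of Etv5. No filter on dim genes lost that of Lpin2, and the replicate block that of Plcb4. Plcb4 was called in 7 of 19 alternatives and Lpin2 in 10 of 20.

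**Figure D4:**
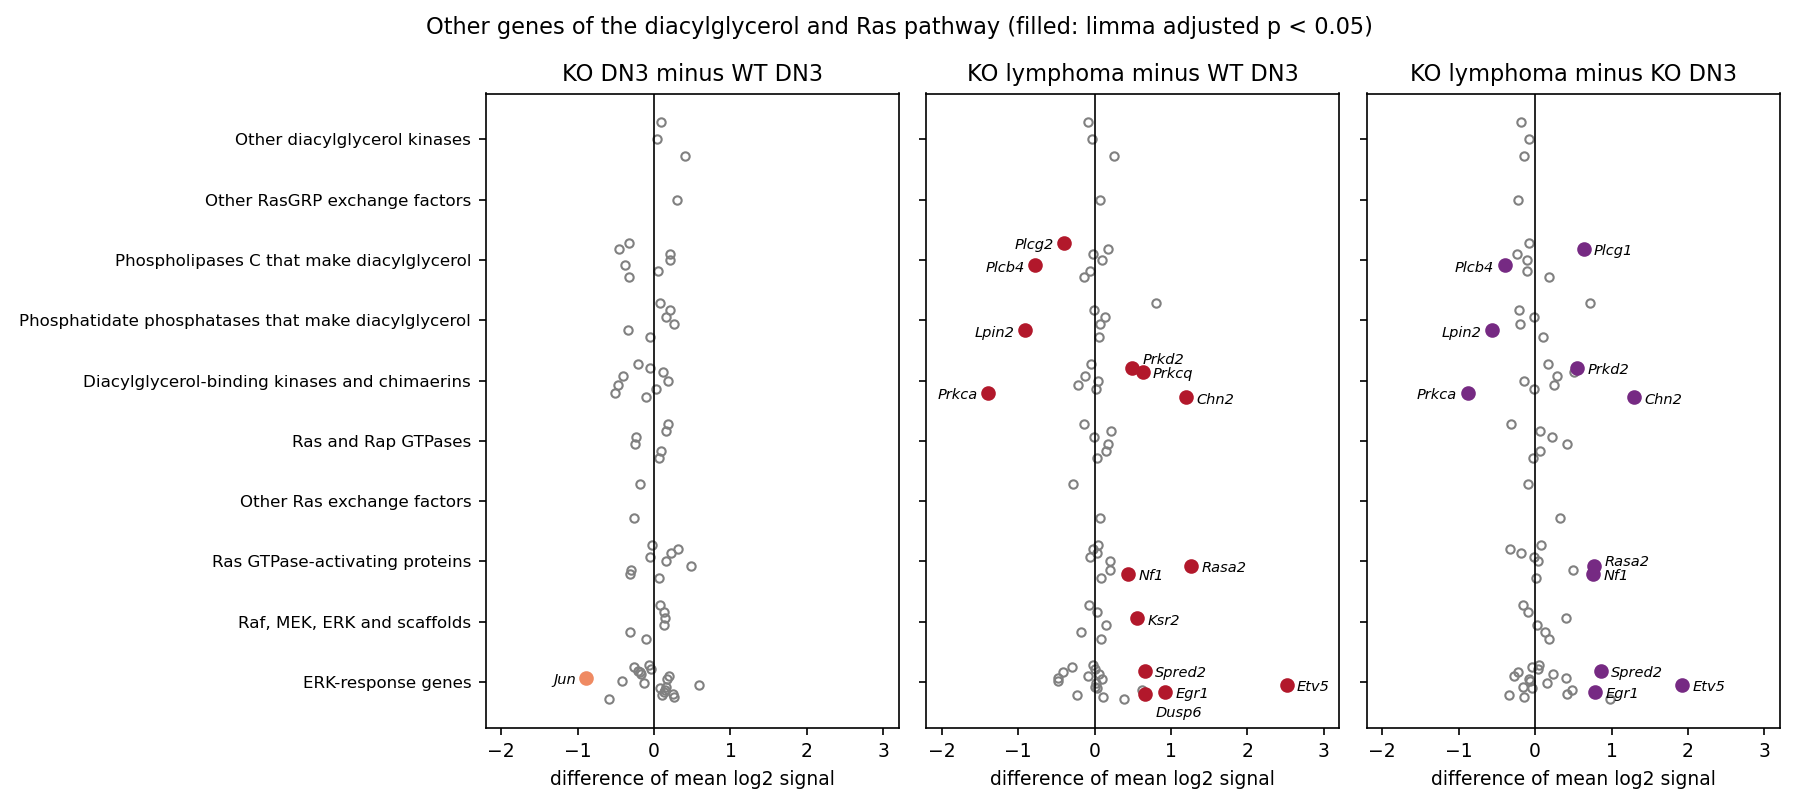
Difference of mean log2 RMA signal for the 69 tested pathway genes in the 3 comparisons, grouped by role down the page. Filled and named points passed a limma adjusted p under 0.05, and open points did not. Etv5 lies farthest to the right in both lymphoma comparisons (2.51 and 1.92) and Prkca farthest to the left (-1.40 and -0.88).

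Genes with the most similar profiles over the 12 arrays were named for each of the 7, as a description, since arrays of a group share their condition and set. The closest to Dgke were Slc12a2 (r 0.970), Scin (0.961) and Smarca4 (0.958). The closest to Dgkeos were Add3 (r 0.978), Ppt1 (0.960) and Trdv2-2 (0.958), and those to Rasgrp1 were Arhgef3 (0.975), P2rx7 (0.974) and Dennd6a (0.969). Dgka was followed by Samd8 (r 0.926), Flna (0.903) and Chchd10 (0.900). Dgkd was followed by Scarna17 (r 0.932), Dlst (0.931) and Cldn12 (0.895), Dgkz by Tnni3k (0.946), Atp13a1 (0.934) and Eml6 (0.878), and Rasgrp2 by Entpd7 (0.894), Tpm2 (0.893) and Ankrd29 (0.888). No gene was closest to more than 1 of the 7.

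The RefSeq table held 12 promoter windows for the 7 genes, of 300 bases each, and these were searched for short motifs of T lineage factors on both strands. The core motif of TCF and LEF factors was searched as CTTTGT and CTTTGA, which differ in the last base. CTTTGT stood in 3 of the 12 windows, those of Dgke, Rasgrp1 and the first of 4 for Dgka, against 18.7% of all 32851 windows. CTTTGA stood in 1, the second of Dgka, against 16% of all windows. In Dgke the CTTTGT begins at base -86 from the start, outside the part shared with Dgkeos, whose window has neither word. The windows of Rasgrp1 (chr2:117342828-117343127, minus strand) and Dgka (first, chr10:128745035-128745334, and second, chr10:128744027-128744326, both on the minus strand) are printed to show where these words lie in them, with the motif in capitals. The Dgke window, which also holds one, is printed above.
Rasgrp1: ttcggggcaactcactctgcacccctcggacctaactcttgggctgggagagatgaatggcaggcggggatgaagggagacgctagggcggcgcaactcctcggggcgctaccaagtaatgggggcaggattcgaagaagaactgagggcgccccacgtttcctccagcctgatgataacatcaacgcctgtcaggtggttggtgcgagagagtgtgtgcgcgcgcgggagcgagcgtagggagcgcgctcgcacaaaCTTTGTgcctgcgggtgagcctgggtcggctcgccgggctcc
Dgka first window: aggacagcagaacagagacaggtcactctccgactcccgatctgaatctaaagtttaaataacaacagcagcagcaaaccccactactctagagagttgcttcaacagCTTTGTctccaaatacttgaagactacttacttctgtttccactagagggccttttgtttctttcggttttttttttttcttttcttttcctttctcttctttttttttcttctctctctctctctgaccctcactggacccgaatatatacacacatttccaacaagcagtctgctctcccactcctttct
Dgka second window: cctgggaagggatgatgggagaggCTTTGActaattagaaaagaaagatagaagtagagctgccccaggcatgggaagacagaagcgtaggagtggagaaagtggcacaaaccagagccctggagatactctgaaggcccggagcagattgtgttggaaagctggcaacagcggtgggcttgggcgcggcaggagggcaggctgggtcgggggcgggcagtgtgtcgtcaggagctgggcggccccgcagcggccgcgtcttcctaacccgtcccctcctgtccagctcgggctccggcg

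Counted from the start, the motif begins at base -142 in the first Dgka window, at base -226 in the second, and at base 8 in Rasgrp1. Of the other motifs, the E protein site CAGCTG stood in the third Dgka window (16.3% of all windows hold it), the ETS site CCGGAA in the second of 2 Rasgrp2 windows (14.9%), and the RUNX site TGTGGT in none of the 12 (16.8%). A match is a run of letters and not a measured binding site.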

How the data were processed

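RNA of 12 arrays was analysed from the deposited table of log2 signals, for which the submitters' processing notes name RMA and Partek, without versions. The base of the logarithm is not stated, and base 2 was taken from the range of the values. RMA background-corrects and quantile-normalises the arrays, so differences are relative to the rest of the array.

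Of 35556 rows 21789 had 1 gene symbol in the platform annotation, 1621 had several and 12146 had none here. Rows with 1 symbol gave 19938 genes, the row with the highest mean standing for the 999 genes with several. The 4985 genes with a mean under the 25th percentile (4.78) were left out, leaving 14953.

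Each comparison was fitted on its 2 groups with limma 3.58.1 (lmFit and eBayes, two-sided) in R 4.3.3, with Benjamini-Hochberg adjustment across the 14953 genes. The procedure was tested on simulated data. A p-value here reflects the spread between the samples of a group, and the number of arrays limits the precision. No 2 arrays held identical values; the highest correlation was 0.987.

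Deviations of same-numbered KO and WT DN3 arrays from their group means correlated at 0.51, 0.42 and 0.25. These arrays were taken as pairs in the replicate block, an alternative fit. The value of 0.51 belongs to replicate 1, whose KO and WT arrays were the only DN3 arrays of the smaller set. Lymphomas 1 and 2, also of that set, correlated with WT replicate 1 at 0.44 and 0.45 and with KO DN3 replicate 1 at 0.38 and 0.38. For replicate 1 pairing and array set therefore cannot be told apart. The main fit left the pairing out, so calls and SEs between KO and WT DN3 cells are unpaired unless the block is named. The main fit called 1.99% of all genes there and the block 9.23%. For lymphomas number 2 gave -0.22 and -0.26, so lymphomas were not taken as pairs. Array sets came from rows that have no gene name and leave a gap of 1 log2 unit or more between arrays: 34 rows shared the split used here, against 14 for the next.

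The 7 genes and all lists were chosen with earlier results of these data known. Named genes were the 7, the other genes of both families, pathway genes called (up to 12 in each direction) and, per member, the 3 most correlated genes that are not predicted loci. The neighbours and the Xist values were added after the data were seen. Promoter windows came from RefSeq (GRCm38.p6). Alternatives covered scaling, filters, rows per gene, variance models, weights, the replicate block, the array set and each array left out.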

Additional observations from a re-analysis of the deposited data

Results flagged for a closer look

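Gm525, the gene next to Dgkeos, was at 10.337 in lymphoma 3, while the other 5 lymphomas lay between 5.90 and 6.64. Its gap to the next lymphoma took up 0.833 of the whole range, above Dixon's critical value for 6 samples. Chance alone puts about 1 in 20 groups past that value, and 29 genes were examined in this way. Lymphoma 3 was not set apart for Dgke or Dgkeos, at 6.23 and 5.00.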

How the results depend on the processing

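Of the values of the 7 genes under the alternatives, 396 moved by less than the replicate SD and 3 moved by more, and none that was called changed sign. The 3 were Rasgrp1 between KO and WT DN3 cells (0.47 after repeated quantile normalisation) and Dgkz with the mean of its rows (-0.002 between KO and WT DN3 cells and -0.02 between lymphomas and KO DN3 cells). Named pathway genes kept their direction throughout, with 445 values on the same side of the threshold and 69 no longer past it. Pathway calls between KO and WT DN3 cells numbered 1, against 2 with arrays centred on their medians, 2 with a filter at the 50th percentile, 3 with the mean of rows, 0 in 1 fit to all 12 arrays (Jun with limma adjusted p = 0.259, where 279 of all genes were called), 6 with the array set as a term, 0 in the larger set alone and 0 to 2 with 1 array left out. With the replicate block, which pairs same-numbered DN3 arrays, 8 pathway genes and 3 of the 7 genes were called. The number of the 7 called there was 2, against 1 in 1 fit to all arrays and 0 to 2 with 1 array left out, 0 being without WT replicate 2, where 57 of all genes were called instead of 298. Between lymphomas and WT DN3 cells 14 pathway genes were called, against 8 in the larger set and 8 to 16 with 1 array left out, and 4 of the 7, against 3 to 5. Between lymphomas and KO DN3 cells 11 pathway genes were called, against 6 in the larger set and 6 to 14 with 1 array left out, and 4 of the 7, against 2 in the larger set and 1 to 4. The lowest pathway counts came without WT replicate 3 and without KO DN3 replicate 3. The larger set has fewer arrays. The block over lymphomas 1 to 3 moved no count in the lymphoma comparisons by over 1.5 times (12 and 15 pathway genes, 4 and 4 of the 7). Lymphomas were not taken as pairs, and this block joins lymphoma 2 of the smaller set to arrays of the larger set. It is therefore no check on the stability of those counts. The cause of the other changes was not tested. Signals near 4.78 limit what can be seen of Dgkeos in lymphomas, Dgki and Rasgrp3.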

Other observations

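Over the 6 lymphomas alone the genes nearest to each of the 7 differed from those over all arrays. Dgka was followed most closely by Zfp36l3 (r 0.997), Lce3b and Avpr1a, Dgkd by Rep15 (0.995), Slc17a5 and Psmc5, and Dgke by Tmem205 (0.994), Apbb2 and Brwd1. Dgkeos was followed by Parg (r 0.989), Fcnb and Sox18, Dgkz by Snorc (0.985), Clec4g and Slc26a1, Rasgrp1 by Kif13a (0.994), Mybphl and Zfp410, and Rasgrp2 by Hmx2 (0.993), Pde4d and Fchsd2. With 6 arrays and 14953 genes searched, correlations of this size are a description of these tumours only.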
